A study of Homo sapiens with 6 samples.

Results

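The genes followed encode 5 molecules through which a tubule cell can engage leukocytes: CSF1, IL6R, ICAM1, VCAM1 and PDCD1LG2. They were chosen from their values in the comparison described here, in cells with an shRNA against PGC-1alpha and cells with an shRNA against GFP, and are 5 of the 14884 genes named on the arrays. Their differences are therefore given as descriptions, with no test. The cells were HK2, an established human proximal tubule epithelial line from kidney. The 3 shPGC-1alpha samples carried a lentiviral pLKO.1 shRNA against PGC-1alpha, a transcriptional coactivator of mitochondrial and metabolic genes, and the 3 shGFP samples carried a pLKO.1 shRNA against GFP, which the cells do not encode. Both groups were infected with lentivirus, selected with puromycin and grown in DMEM with 10% FBS, and RNA was taken on day 5, which was 24 hours after selection ended. The labels name 1 construct per group and no rescue, so the effects of the shRNA sequence and of its target cannot be told apart.

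Proximal tubule cells take part in renal inflammation as well as in reabsorption. CSF1 is the growth factor that keeps macrophages alive through the receptor CSF1R. IL6R binds interleukin-6 and signals with the shared subunit gp130, and the sheddases ADAM17 and ADAM10 can release it from the membrane. ICAM1 and VCAM1 are immunoglobulin superfamily proteins of the cell surface bound by leukocyte integrins, the first by LFA-1 and Mac-1 and the second by VLA-4. PDCD1LG2 encodes PD-L2, which with PD-L1, the product of CD274, is a ligand of the inhibitory T cell receptor PD-1. In many cell types NF-kB and interferon-activated factors are known to act on the ICAM1 and VCAM1 promoters.

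The promoters of 3 of the 5 genes were at hand from RefSeq on GRCh38.p14, and they are printed as background. The genes were chosen as higher in the shPGC-1alpha arrays, so their shared direction says nothing about a shared regulator. Any part of NF-kB in their values was not tested. Each line gives the 250 bases before the annotated start, 5′ to 3′ on the gene's strand. Capitals mark matches, on either strand, to 4 searched motifs: GGNNNTTCC (kB-like), TTCNNNGAA (STAT or GAS-like), TGACTCA (AP-1) and GAAANNGAA (IRF or ISRE-like).
ICAM1, plus strand, chr19:10270870-10271119: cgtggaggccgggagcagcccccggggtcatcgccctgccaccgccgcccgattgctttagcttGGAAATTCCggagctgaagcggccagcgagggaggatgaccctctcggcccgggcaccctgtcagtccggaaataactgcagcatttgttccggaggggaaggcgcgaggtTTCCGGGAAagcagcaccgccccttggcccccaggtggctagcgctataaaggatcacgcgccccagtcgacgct
VCAM1, plus strand, chr1:100719492-100719741: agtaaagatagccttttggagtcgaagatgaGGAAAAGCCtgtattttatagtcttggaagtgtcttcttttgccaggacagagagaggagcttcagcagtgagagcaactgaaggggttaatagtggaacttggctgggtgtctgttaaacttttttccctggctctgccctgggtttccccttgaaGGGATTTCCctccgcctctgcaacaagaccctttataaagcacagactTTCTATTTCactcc
IL6R, plus strand, chr1:154405093-154405342: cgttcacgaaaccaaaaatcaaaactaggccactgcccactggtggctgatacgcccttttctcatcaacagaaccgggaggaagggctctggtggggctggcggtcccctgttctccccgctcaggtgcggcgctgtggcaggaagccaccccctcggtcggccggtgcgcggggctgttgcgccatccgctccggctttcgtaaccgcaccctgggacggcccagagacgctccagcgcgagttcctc

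The ICAM1 window held 1 kB-like match, GGAAATTCC, from 186 to 178 bases before the start, and 1 GAS-like match, TTCCGGGAA, from 75 to 67 bases before it. The VCAM1 window held 2 kB-like matches, GGGATTTCC at 62 to 54 bases before the start and, on the other strand, GGAAAAGCC at 219 to 211, and 1 IRF-like match, TTCTATTTC, at 14 to 6. The matches did not overlap each other, and the IL6R window held none of the 4 motifs. Over the 27305 promoter windows of the same length, 17.1% held a kB-like match, 6.78% a GAS-like, 4.16% an AP-1 and 7.06% an IRF-like match. A match is a run of letters, not a shown binding site, and binding was not measured. Sites spelled otherwise than these 4 motifs were not marked, so lower case does not show that a site is absent.

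Expression is given throughout as the deposited log2 RMA value, in which 1 unit is a doubling of signal. Every array held 53617 probe sets, of which 16098 had a gene name, and array medians lay between 5.00 and 5.04. Pearson correlations over the probe sets were 0.982 to 0.987 across groups and 0.988 to 0.992 within them. PPARGC1A, the target of the shRNA, had 0 named probe sets, so the knockdown itself is not analysed here. The number of arrays limits the precision, and bulk RNA cannot tell a change in the share of some cells from a change in RNA per cell.

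CSF1 had log2 values of 8.81, 8.92 and 9.06 in shPGC-1alpha replicates 1 to 3, against 7.10, 7.16 and 7.11 in shGFP replicates 1 to 3. The shPGC-1alpha arrays were all above the shGFP arrays, with a gap of 1.65 between the closest pair, which was 6.65 times the wider of the within-group ranges. The group means were 8.93 ± 0.12 in shPGC-1alpha and 7.12 ± 0.04 in shGFP cells (SD, n = 3 each), a log2 difference of 1.81 (SE 0.08) or 3.51-fold. Among the 14884 genes this difference ranked 18 from the largest increase.

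IL6R, the ligand-binding chain for interleukin-6, had log2 values of 8.19, 7.98 and 8.14 in the shPGC-1alpha arrays, against 6.47, 6.41 and 6.38 in the shGFP arrays. Again no array of either group reached the other group, and the closest pair differed by 1.51. The means were 8.10 ± 0.11 in shPGC-1alpha and 6.42 ± 0.05 in shGFP cells (SD, n = 3 each), a log2 difference of 1.68 (SE 0.08) or 3.21-fold. The array measured total IL6R transcript, so membrane and soluble forms were not separated.

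PDCD1LG2 had log2 values of 7.80, 7.40 and 7.77 in the shPGC-1alpha arrays, against 5.76, 6.09 and 5.82 in the shGFP arrays. It varied most of the 5 genes within groups, since replicate 2 was the lowest shPGC-1alpha array and replicate 2 also the highest shGFP array, yet the groups stayed 1.31 apart at their closest. The means were 7.66 ± 0.22 in shPGC-1alpha and 5.89 ± 0.18 in shGFP cells (SD, n = 3 each), a log2 difference of 1.77 (SE 0.13) or 3.40-fold.

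ICAM1 had log2 values of 11.21, 11.22 and 11.24 in the shPGC-1alpha arrays, against 10.15, 10.09 and 10.19 in the shGFP arrays. Its shPGC-1alpha arrays agreed within 0.03, the tightest group of any of the 5 genes, and the groups were 1.01 apart at their closest. The means were 11.22 ± 0.02 in shPGC-1alpha and 10.15 ± 0.05 in shGFP cells (SD, n = 3 each), a log2 difference of 1.07 (SE 0.06) or 2.10-fold.

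VCAM1 had log2 values of 5.72, 5.72 and 5.79 in the shPGC-1alpha arrays, against 5.27, 5.11 and 5.13 in the shGFP arrays. This was the smallest difference of the 5, and the groups were still 0.44 apart at their closest. The means were 5.74 ± 0.04 in shPGC-1alpha and 5.17 ± 0.09 in shGFP cells (SD, n = 3 each), a log2 difference of 0.57 (SE 0.07) or 1.48-fold. The log2 difference between groups was 0.50 larger for ICAM1 than for VCAM1. Both VCAM1 means lay above 4.43, the 20th percentile of the mean levels of all named genes, and its mean level stood at percentile 37.3. The leukocyte markers CD8A, SPI1 and NKG7 had higher means than VCAM1 in both groups. A level above 4.43 therefore does not show that the transcript was present.

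**Figure D1:**
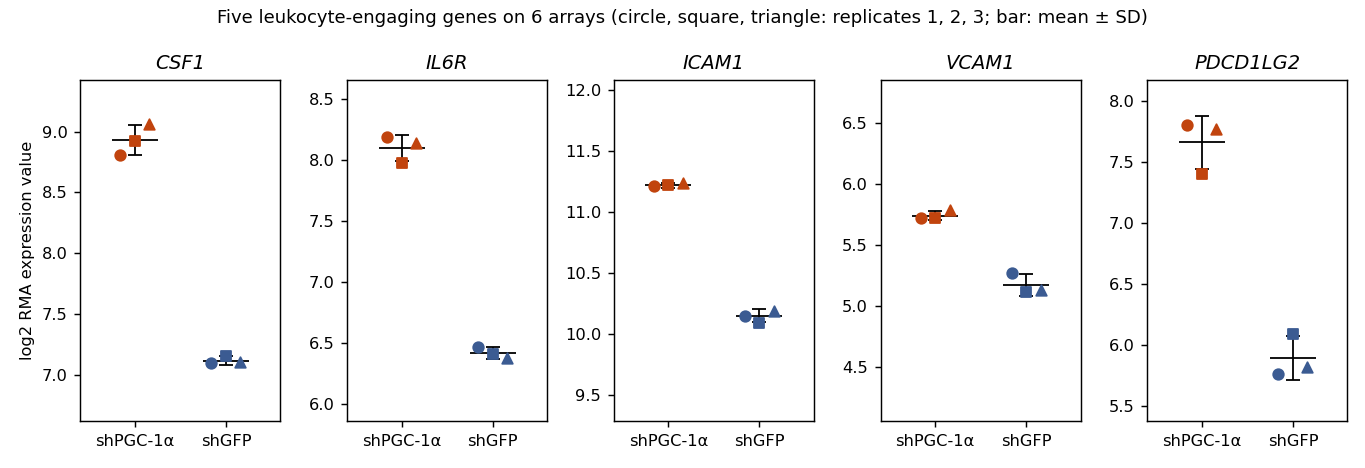
Log2 RMA value (vertical axis, the same span of log2 units in every panel but a different starting level) of each of the 5 genes on the 3 shPGC-1alpha arrays (left) and the 3 shGFP arrays (right). Symbols mark replicates 1 to 3 and bars the mean ± SD. The groups lay apart for all 5 genes, by 1.65 for CSF1 and by 0.44 for VCAM1 at the closest pair.

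All 5 genes were thus higher in every shPGC-1alpha array than in any shGFP array, a pattern that 17.2% of all named genes showed. All 5 also passed an adjusted p of 0.05 upwards in limma's test over the 14884 genes, as 9.58% of all genes did. Both counts follow from how the genes were chosen. Centred on its own mean, the average of the 5 genes was 0.71, 0.61 and 0.76 in shPGC-1alpha replicates 1 to 3 and -0.69, -0.67 and -0.72 in shGFP replicates 1 to 3. The genes did not share an order of arrays within groups: the highest shPGC-1alpha array was replicate 3 for CSF1, ICAM1 and VCAM1 and replicate 1 for IL6R and PDCD1LG2. With any 1 array left out the log2 differences stayed between 1.75 and 1.87 for CSF1, 1.64 and 1.74 for IL6R, 1.05 and 1.10 for ICAM1, 0.54 and 0.62 for VCAM1, and 1.69 and 1.89 for PDCD1LG2.

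The partners of CSF1 were read from a list of growth factors and receptors of the colony-stimulating factor group, 9 of which were measured besides CSF1. In limma's test over all genes 2 of the 9 rose and 2 fell, against a background of 9.58% higher and 12.2% lower, and their median log2 difference was -0.09, against -0.02 over all genes. CSF1R, the receptor of CSF1, fell to 6.06, 6.08 and 6.21 in shPGC-1alpha arrays, against 6.61, 6.56 and 6.63 in shGFP arrays, a log2 difference of -0.48 (SE 0.07, limma adjusted p 0.00274). Ligand and receptor values thus differed in opposite directions, and the log2 differences between groups lay 2.30 apart. The CSF1R values were close to those of the leukocyte markers CD8A, SPI1 and NKG7. Without a detection call, it is not known whether its transcript was present. IL34, the other ligand of CSF1R, had means of 5.09 and 5.26 in shPGC-1alpha and shGFP cells, a difference of -0.17 with a 95% interval of -0.46 to 0.11 that did not pass, although it did without shGFP replicate 1 (limma adjusted p 0.0473).

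KITLG, the ligand of the stem cell and mast cell receptor KIT, fell by 1.06 on the log2 scale (SE 0.07), with means of 7.45 in shPGC-1alpha and 8.51 in shGFP cells. FLT3LG, a growth factor of dendritic cell precursors, rose by 0.60 (SE 0.08), and CSF3, the neutrophil growth factor G-CSF, rose by 0.45 (SE 0.09). By limma the adjusted p was 0.000173 for KITLG, 0.00252 for FLT3LG and 0.00964 for CSF3. CSF2 was not analysed here.

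IL6R stood in a list of ligands, receptors and signalling proteins of the interleukin-6 family, 20 of which were measured besides IL6R. Of the 20, 11 rose and 0 fell, 55% against a background of 9.58%, and their median log2 difference was 0.33. With p-values adjusted over all probe sets, 6 of the 20 rose, as did 767 of the 14884 genes. IL6 and IL6ST, which encodes gp130, were not analysed here. The receptor chains OSMR, for oncostatin M, and LIFR, for leukemia inhibitory factor, rose by 0.45 (SE 0.06) and 0.50 (SE 0.07). JAK1, a kinase bound to these receptors, rose by 0.54 (SE 0.06) and lay at 12.12 to 12.13 in the shPGC-1alpha arrays, against 11.56 to 11.61 in the shGFP arrays. EBI3, a subunit of interleukin-27 and interleukin-35, rose by 0.57 (SE 0.11).

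The feedback inhibitors of this pathway were among the members that rose. SOCS3, which binds gp130 and JAK kinases, had log2 values of 8.60, 8.34 and 8.70 in shPGC-1alpha arrays, against 7.65, 7.58 and 7.56 in shGFP arrays, a difference of 0.94 (SE 0.10, limma adjusted p 0.000797). That call rested on the brighter of its probe sets, since the probe set with the lowest mean gave 0.44 (SE 0.22, limma adjusted p 0.218). SOCS1, a related inhibitor of JAK kinases, rose by 0.88 (SE 0.11). In both genes replicate 2 was the lowest of the shPGC-1alpha arrays, as it was for IL6R and PDCD1LG2. It was also the lowest for VCAM1, by less than the rounding of the values.

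Of the IL6R sheddases, ADAM17 rose by 0.33 (SE 0.06, limma adjusted p 0.00967, and 0.0523 when adjusted over all probe sets), with arrays at 9.79 to 9.82 in shPGC-1alpha and 9.42 to 9.52 in shGFP cells. ADAM10 did not pass, at -0.07 with a 95% interval of -0.22 to 0.07. The remaining 4 that rose, named after their values were seen, were the receptor chain IL31RA at 0.37, the ligands IL11 at 0.35 and LIF at 0.34, and the transcription factor STAT3 at 0.27. STAT3 lost its call without any array other than shGFP replicate 1, IL11 without any of shPGC-1alpha replicate 3, shGFP replicate 2 and shGFP replicate 3, and LIF without shGFP replicate 2. The other STAT genes of the list did not pass, with STAT5B at -0.20 and STAT5A at -0.03.

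**Figure D2:**
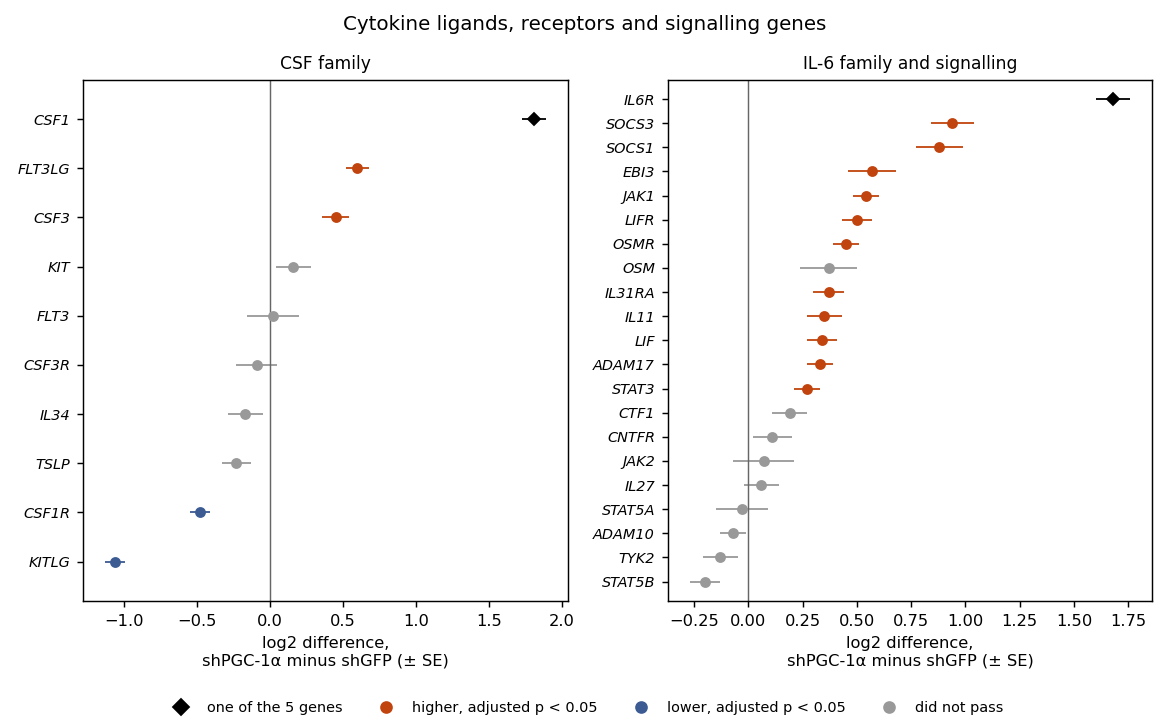
Log2 difference, shPGC-1alpha minus shGFP, with its SE (horizontal axis) for the measured genes of the colony-stimulating factor list (left) and the interleukin-6 family list (right). Black diamonds are CSF1 and IL6R, and colours mark genes that passed limma's adjusted p of 0.05 upwards or downwards. CSF1 at 1.81 and IL6R at 1.68, which were chosen from these values, lie at the top of their panels. CSF1R at -0.48 and KITLG at -1.06 lie at the foot of the left panel.

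Besides ICAM1 and VCAM1, 28 adhesion molecules that leukocytes or their receptors can bind were measured, of which 9 rose and 5 fell, 32.1% and 17.9% against backgrounds of 9.58% and 12.2%. Their median log2 difference was 0.05. CD44, a hyaluronan receptor, rose by 1.33 (SE 0.07), with arrays at 9.17 to 9.26 in shPGC-1alpha and 7.80 to 7.98 in shGFP cells. CX3CL1, the membrane-bound chemokine that captures cells with CX3CR1, rose by 0.64 (SE 0.08), and the adhesion protein L1CAM by 0.61 (SE 0.08). NECTIN2, a nectin bound by receptors of T and NK cells, rose by 0.67 (SE 0.07). By limma the adjusted p was 6.63e-05 for CD44, 0.00131 for CX3CL1, 0.00182 for L1CAM and 0.00096 for NECTIN2.

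Other surface adhesion proteins fell. EPCAM, an epithelial adhesion molecule, fell to a mean of 8.61 in shPGC-1alpha cells, against 9.35 in shGFP cells, a log2 difference of -0.73 (SE 0.07). ALCAM, a ligand of the T cell protein CD6, fell to 8.50 in shPGC-1alpha cells, against 9.13 in shGFP cells (difference -0.63, SE 0.06). Named after their values were seen, MCAM, CD99 and CD99L2 also fell, by 0.49, 0.37 and 0.50, and CADM1, CD47, JAM3, CD58 and ESAM rose, by 1.28, 0.41, 0.37, 0.39 and 0.27. CADM1 was at 6.78, 6.72 and 5.97 in shPGC-1alpha arrays, against 5.12, 5.37 and 5.13 in shGFP arrays, so replicate 3 stood apart from its group. The call of ESAM was lost without any array other than shGFP replicate 3, and that of CD58 without shGFP replicate 2.

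The measured relatives of ICAM1 did not pass. ICAM2 had means of 6.47 in both groups, a difference of 0.01 with a 95% interval of -0.16 to 0.17, and ICAM3 had means of 7.01 in shPGC-1alpha and 6.96 in shGFP cells, a difference of 0.06 with an interval of -0.22 to 0.33. ICAM4 and ICAM5 were not analysed here. SELE, the endothelial selectin, did not pass, at 0.07, nor did PECAM1, a defining protein of endothelium, at -0.12 with means of 3.54 in shPGC-1alpha and 3.66 in shGFP cells. Of the leukocyte integrins and related counter-receptors, SPN was measured, with means of 5.08 in shPGC-1alpha and 5.16 in shGFP cells, and did not pass.

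PDCD1LG2 was set beside ligands and receptors through which cells hold back or stimulate T cells, 19 of which were measured besides it. Of these 4 rose and 1 fell, 21.1% and 5.26% against backgrounds of 9.58% and 12.2%, with a median log2 difference of 0.04. CD274, the other PD-1 ligand, had log2 values of 6.73, 6.43 and 6.26 in shPGC-1alpha arrays, against 6.55, 6.31 and 6.52 in shGFP arrays. The groups overlapped, and the difference of 0.01 had a 95% interval of -0.30 to 0.32. The log2 differences between groups of the PD-1 ligand genes lay 1.75 apart. The CD274 values were close to those of the leukocyte marker CD8A. Without a detection call, it is not known whether the CD274 transcript was present.

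ICOSLG, the ligand of the costimulatory receptor ICOS, had log2 values of 7.36, 7.22 and 7.50 in shPGC-1alpha arrays, against 5.76, 6.14 and 6.03 in shGFP arrays, and rose by 1.39 (SE 0.12, limma adjusted p 0.000329). CD70, the ligand of CD27, rose by 0.91 (SE 0.06, limma adjusted p 0.000166), with arrays at 10.27 to 10.39 in shPGC-1alpha and 9.40 to 9.44 in shGFP cells. NCR3LG1, or B7-H6, which activates NK cells, rose by 0.77 (SE 0.08). The fourth was NECTIN2, which the adhesion list also holds. CD276, or B7-H3, fell by 0.32 (SE 0.09), a call lost without any array other than shPGC-1alpha replicate 2. The costimulatory ligands CD80 and CD86 did not pass, at -0.07 (95% interval -0.31 to 0.18) and -0.05 (-0.27 to 0.18), and CD80 lay below 4.43 in both groups.

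**Figure D3:**
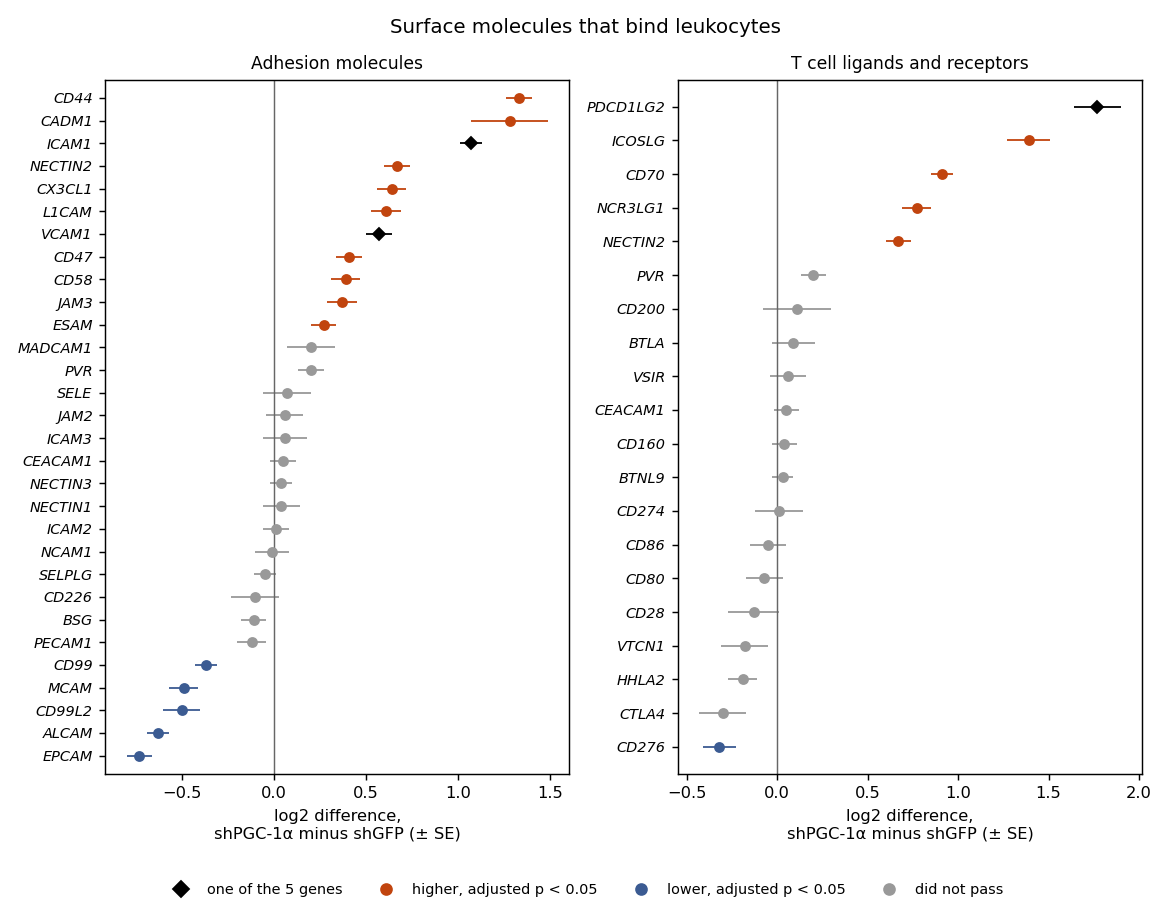
Log2 difference, shPGC-1alpha minus shGFP, with its SE (horizontal axis) for measured adhesion molecules (left) and for ligands and receptors of T cell control (right). Black diamonds are ICAM1, VCAM1 and PDCD1LG2, and colours mark genes past limma's adjusted p of 0.05. PDCD1LG2 at 1.77, chosen from these values, lies at the top of the right panel, with CD274 at 0.01 in the middle of it. In the left panel ICAM1 at 1.07 lies below CD44 at 1.33.

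Other routes by which an epithelial cell is seen by lymphocytes were read from a list of antigen presentation genes and NK cell ligands. Of 18 measured, 4 rose and 0 fell, 22.2% against a background of 9.58%, with a median log2 difference of 0.17. With an intensity trend and a robust prior 9 rose, but the share of all genes that rose in that setting is not given here. CTSS, the cathepsin that trims the invariant chain of class II molecules, rose by 1.72 (SE 0.08, limma adjusted p 3.82e-05), to 9.04 to 9.13 in shPGC-1alpha arrays, against 7.30 to 7.49 in shGFP arrays. The NKG2D ligands MICA and MICB rose by 0.60 and 0.55 (SE 0.07 each), and since they are close relatives whose probes can share transcripts, their values may not be separate signals. ULBP1, another NKG2D ligand, rose by 0.59 (SE 0.16) at a low level, and its call was lost without any array other than shPGC-1alpha replicate 3. B2M, the light chain of class I molecules, did not pass, at 0.17, and neither did the loading factor TAPBP, at -0.04. The class I and class II HLA heavy chain genes were not analysed here.

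The inducers and transcription factors known to act on ICAM1, VCAM1 or the PD-1 ligand genes formed the last list, of which 31 were measured. Of these 12 rose and 3 fell, 38.7% and 9.68% against backgrounds of 9.58% and 12.2%, with a median log2 difference of 0.22. IFNGR2, a chain of the interferon-gamma receptor, rose by 1.05 (SE 0.06), and IL1RAP, the shared chain of interleukin-1 receptors, by 1.06 (SE 0.09). Among transcription factors IRF2 rose by 0.85 (SE 0.07), ETS1 by 0.69 (SE 0.06) and IRF1 by 0.54 (SE 0.08, limma adjusted p 0.0037), with IRF1 at 7.31 to 7.39 in shPGC-1alpha and 6.65 to 6.91 in shGFP arrays. The NF-kB subunit genes NFKB1 and NFKB2 rose by 0.80 and 0.77, whereas RELA, the main activating subunit, did not pass, at -0.06 with a 95% interval of -0.23 to 0.10. Of the other subunit genes, named after their values were seen, REL rose by 0.30, a call lost under 8 of the 14 alternatives. RELB did not pass, at 0.26. The cytokine TNF itself did not pass, at 0.01. The 3 that fell, named after their values were seen, were SP1, TLR2 and TLR4, at -0.31, -0.58 and -0.50. The TLR4 means lay on either side of 4.43, at 4.18 in shPGC-1alpha and 4.67 in shGFP cells. TLR3, also named after its values were seen, rose by 1.04 (SE 0.10), with means of 7.99 in shPGC-1alpha and 6.95 in shGFP cells. The count lower was 0 without shPGC-1alpha replicate 3, without shGFP replicate 2 and without shGFP replicate 3, and 1 without shPGC-1alpha replicate 2.

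Position on the chromosome was not used to choose the 5 genes, so the nearest named genes, 2 on each side of each, were read from the RefSeq order, passing over genes without a named probe set. Of these 20 neighbours 1 rose and 3 fell in limma's test over all genes, against backgrounds of 9.58% and 12.2%. CD274 and PDCD1LG2 are adjacent protein-coding genes on chromosome 9. RIC1, the next gene on the other side of PDCD1LG2, fell by 0.34 (SE 0.07). Its call was lost without shPGC-1alpha replicate 2 and with adjustment over all probe sets. RLN1, a relaxin gene beyond CD274, fell by 0.43 (SE 0.07) at a low level, with a mean of 3.88 in shPGC-1alpha cells and 4.31 in shGFP cells. On chromosome 19, MRPL4, the protein-coding gene next to ICAM1, was at -0.02, and S1PR2, with 1 protein-coding gene between, was at -0.24. On the other side ICAM3 was at 0.06 and TYK2 at -0.13, with 5 and 6 protein-coding genes between them and ICAM1, and none of these 4 neighbours passed. On chromosome 1, HAX1 near IL6R rose by 0.40 (SE 0.08, a call lost with adjustment over all probe sets) and DPH5 near VCAM1 fell by 0.73 (SE 0.13). The 4 neighbours of CSF1 did not pass and lay between -0.10 and 0.23.

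**Figure D4:**
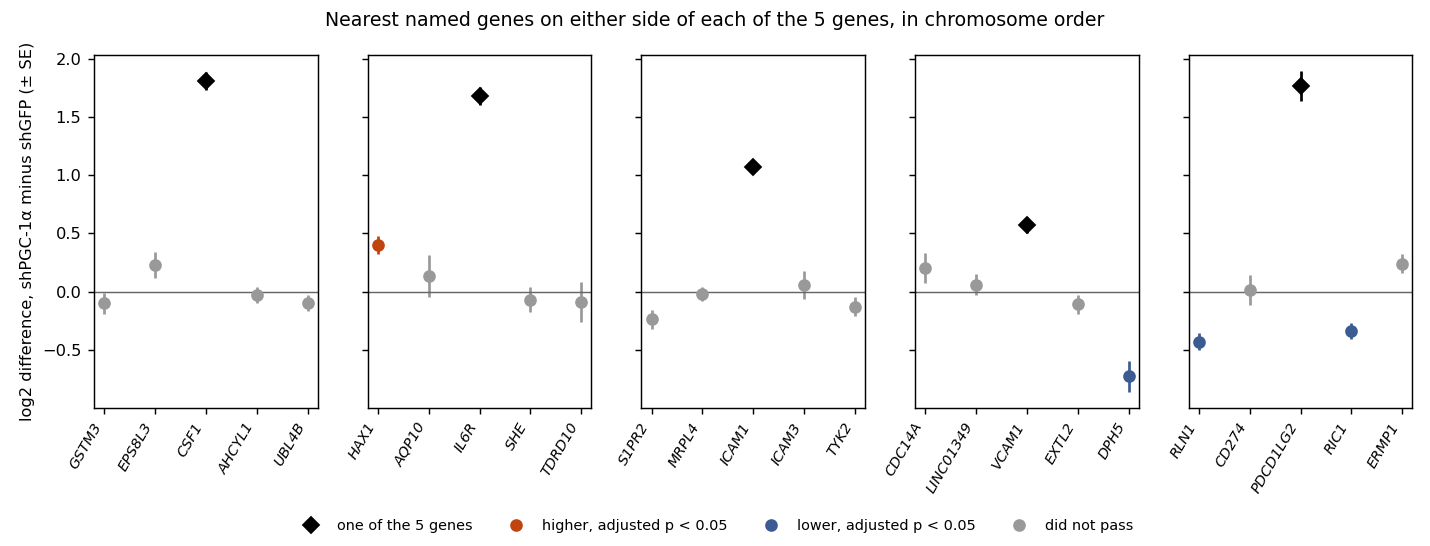
Log2 difference, shPGC-1alpha minus shGFP, with its SE (vertical axis) for each of the 5 genes (black diamond) and the nearest named genes on either side, in chromosome order and not to scale. Colours mark neighbours past limma's adjusted p of 0.05. Neighbours lie between -0.73 for DPH5 and 0.40 for HAX1. The place of the black diamonds above them follows from how the 5 genes were chosen.

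The genes whose pattern over the 6 arrays was most like each of the 5 were found by the smallest root mean square difference between mean-centred log2 values. The measure takes in the difference between groups, so it favours genes that differed by the same amount. For CSF1 they were the chemokines CXCL8 (0.098) and CXCL2 (0.102) and, between them, NAV3 (0.10). For IL6R they were the kinase MAP3K5 (0.051), the lipid phosphatase PLPP3 (0.051) and NAV3 (0.066). For ICAM1 they were HMOX1 (0.040), the lysosomal protein DRAM1 (0.043) and the peptide hormone gene ADM (0.047). VCAM1 was closest to the actin nucleator SPIRE1 (0.021), the kinase HIPK3 (0.024) and SQLE (0.031). For PDCD1LG2 they were CTSS (0.131), MAP3K5 (0.143) and PLPP3 (0.157), the loosest fits of the 5.

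Markers of other cells were checked because leukocytes and endothelium also carry these molecules. Of 12 measured leukocyte markers 2 rose and 1 fell, 16.7% and 8.33% against backgrounds of 9.58% and 12.2%, and their summed linear signal was 3333 to 3545 in shPGC-1alpha arrays and 2686 to 2828 in shGFP arrays. CD68, a lysosomal protein that epithelial cells can also make, supplied 82.3% to 83.4% of it in shPGC-1alpha and 81.7% to 82.7% in shGFP arrays and rose by 0.34. LAPTM5, a lysosomal membrane protein of leukocytes, rose by 1.45, to a mean of 7.39 in shPGC-1alpha cells against 5.94 in shGFP cells, and TYROBP fell by 0.28, a call lost without any array other than shPGC-1alpha replicate 2. The other 9 did not pass, with differences between -0.20 and 0.24, and CD163 and LYZ were the 2 of the 12 with both means below 4.43. Among those above it, named after their values were seen, CD8A had means of 6.60 in shPGC-1alpha and 6.45 in shGFP cells, SPI1 of 6.11 in shPGC-1alpha and 6.23 in shGFP cells, and NKG7 of 6.07 in shPGC-1alpha and 6.12 in shGFP cells. CD14 had means of 4.60 in shPGC-1alpha and 4.36 in shGFP cells. RMA values have no true 0 and no detection call. Genes near or below the CD8A means are therefore not known to be present, among them CD274, ICAM2, CSF3, IL31RA and ESAM. The same holds for IL6R and PDCD1LG2 in shGFP cells. Of 8 endothelial markers 0 passed by limma (1 at an unadjusted p under 0.05), with a sum of 247 to 265 in shPGC-1alpha and 232 to 269 in shGFP arrays (4 of them below 4.43 in both groups). Of 3 fibroblast markers 2 rose, against a background of 9.58%, LUM by 0.76 and DCN by 0.83 (DCN with a mean of 3.80 in shGFP cells), with a sum of 690 to 755 in shPGC-1alpha and 454 to 461 in shGFP arrays. The part of these markers in the values of the 5 genes was not tested.

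The epithelial label was also read against its markers. Of 16 measured proximal tubule and epithelial markers 3 rose and 6 fell, 18.8% and 37.5% against backgrounds of 9.58% and 12.2%, with a sum of 11481 to 11594 in shPGC-1alpha and 12254 to 12590 in shGFP arrays. The renal transcription factor PAX8 was at means of 11.82 in shPGC-1alpha and 11.44 in shGFP cells, and the tubule proteins HAVCR1 and DPP4 (the second named after its values were seen), which fell by 0.36 and 0.27, had means of 11.61 and 10.39 in shPGC-1alpha and 11.97 and 10.66 in shGFP cells, whereas the endocytic receptors LRP2 and CUBN of the differentiated segment lay below 4.43 in both groups. KRT19 fell by 1.42 and LCN2, an iron-binding protein, rose by 1.52. MME, a surface peptidase, fell by 0.61. Also named after their values were seen, GATM, an enzyme of creatine synthesis, rose by 0.55 and KRT18 fell by 0.31. The call of DPP4 was lost without any array other than shPGC-1alpha replicate 1, and that of KRT18 with its dimmest probe set. Their part in the values of the 5 genes was not tested.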

How the data were processed

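Biotin-labelled cRNA from 6 HK2 samples was hybridised to Affymetrix arrays. The authors deposited log2 expression values made with RMA and Affymetrix Expression Console, per the submitters' processing notes, with versions not given in the sources used here. RMA equalises array distributions, so a change shared by most transcripts would be reduced. Values were used as deposited. Scanner files and scan dates were not used here.

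Titles gave each group and replicate number and call the replicates biological, without saying whether transductions were separate, so the spread may be partly technical. No pair of arrays was a duplicate (13 to 119 identical values of 53617). Probe sets were named from the platform annotation (16098 with 1 symbol, 0 with several, 37519 unnamed here), and the probe set with the highest mean stood for a gene. Each of the 5 genes had 1 probe set.

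The main test was limma 3.58.1 under R 4.3.3 (lmFit, eBayes, no replicate block, no filter), with Benjamini-Hochberg adjustment over 14884 genes and a threshold of 0.05. An exact permutation test of 3 against 3 arrays has a smallest p of 0.1. The procedure was tested on simulated data. The 5 genes and the 11 lists were chosen with earlier results of these data known. In each list the called genes were ranked by p and up to 6 were named, or 3 where 0 passed, with a fixed set of partners, and any other gene was named after its values were seen. The 20th percentile of mean levels, 4.43, marks dim genes. RefSeq tables of GRCh38.p14 gave gene order and promoters. Arrays left out, a replicate block, probe set choice, a filter on dim genes, rescaling, the variance prior and adjustment over all probe sets were the alternatives.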

Additional observations from a re-analysis of the deposited data

How the results depend on the processing

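The log2 differences of CSF1, IL6R, VCAM1 and PDCD1LG2 moved by less than the spread between replicates under every alternative run, and so did that of ICAM1 other than with quantile normalisation repeated over the named genes (1.03). Adjusted over all probe sets, 767 genes were higher and 970 lower, against 1426 and 1817 over the named genes, 6 interleukin-6 family genes were higher, and 0 T cell ligand genes and 0 inducers were lower. CD276, the lower T cell ligand gene, was also lost (0 lower) with repeated quantile normalisation and with the replicate block. Under the replicate block 1 inducer was lower and 1221 genes were higher and 1552 lower. Among genes above the 20th percentile 1 interleukin-6 family gene was lower. With an intensity trend and robust prior 9 antigen presentation genes were higher (the share over all genes in that setting is not given here). With 1 array left out, 1011 to 1170 genes were higher and 1301 to 1502 lower, 0 to 1 T cell ligand genes were lower and 0 to 3 inducers were lower. The causes were not tested. Of the 69 named or listed genes called, other than the 5, 44 kept their call under all 14 alternatives, and 2 dim genes (DCN and RLN1) under the 13 that could be run for them. Calls lost with adjustment over all probe sets included those of CD99L2, GATM, IL31RA, JAM3, KRT18 and RIC1. None of the 69 reversed. Deviations from the group means correlated at 0.12, 0.09 and 0.02 between arrays numbered 1, 2 and 3, and at -0.12 to 0.06 between arrays of unlike number. Each shPGC-1alpha array thus correlated most with the shGFP array of its own number, though weakly. The labels do not say what a shared number means, so the main test took no pairing. By this measure shGFP replicate 3 was nearer to shPGC-1alpha replicate 2 (0.06) than to its own number. Array number limits precision, and RMA values carry no detection call.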
